A study of Mus musculus with 8 samples.

Results

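The D-type cyclins, their kinase partners CDK4 and CDK6 and the inhibitors of these kinases were followed at the RNA level in mouse embryonic fibroblasts (MEFs) grown on a stiff or a soft substrate. The set holds 10 genes chosen by name (Ccnd1, Ccnd2, Ccnd3, Cdk4, Cdk6, Cdkn1a, Cdkn1b, Cdkn2a, Cdkn2b and Cdkn2c), and all 10 are among the 12528 genes listed in the deposited table, so none was absent from these immortalized cells. The MEFs were isolated from wild-type (WT) mice and from littermates lacking caveolin-1 (Cav1KO), and both were immortalized. They were seeded at low confluence on polyacrylamide gels that were either stiff or soft, and poly(A) RNA was taken after 24 h. This gave 4 groups, named here by genotype and substrate as in WT stiff or Cav1KO soft, and 2 libraries of single 60-nt reads in each. The sources do not say that the 2 libraries of a group came from separate cultures, so the p-values measure only the spread between these libraries. No source names more than 1 immortalized line per genotype, so genotype and line cannot be told apart.

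D-type cyclins are made when a cell receives growth factor and adhesion signals, and they bind CDK4 or CDK6 to form kinases that phosphorylate the retinoblastoma protein RB. Phosphorylated RB releases E2F transcription factors, which switch on the genes of S phase. The INK4 proteins (p16 and its relatives, from Cdkn2a, Cdkn2b, Cdkn2c and Cdkn2d) bind CDK4 and CDK6 and keep cyclin D away, whereas the CIP/KIP proteins p21 (Cdkn1a) and p27 (Cdkn1b) act mainly on cyclin E and cyclin A complexes with CDK2. Cdkn2a also encodes, from a separate first exon and another reading frame, p19ARF, which stabilizes p53. Fibroblasts in culture raise the Cdkn2a products with passage, and loss of Cdkn2a or of p53 is a common route to immortal mouse lines.

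The promoter sequences of the inhibitors are shown first, because Cdkn2a, Cdkn2b and Cdkn1b were lower on the stiff substrate in both genotypes and Cdkn1a changed in opposite directions. The promoter of Cdk4, the predominant kinase gene, is shown beside them. Each is the 250 bases before a RefSeq start site, in build GRCm38.p6, read 5' to 3' in the direction of transcription. RefSeq promoters were matched for 8 of the 10 genes, and Ccnd1 and Ccnd2 had no entry. Capitals mark matches, on either strand, to short motifs, and positions count back from -1 at the last base before the start. The motifs were E2F (TTTGGCGC or TTTCGCGC, in 0.655% of all 32851 promoters of this length), SP1 (GGGCGG, 32.7%), the CCAAT box (CCAAT, 33.9%), the E-box (CACGTG, 6.02%), TEAD (GGAATG, 12.6%), AP-1 (TGANTCA, 6.75%) and CRE (TGACGTCA, 1.55%). A pair of p53 core letters (CATGNNNNNNCATG, 0.490%) was added after the sequences had been seen. No match overlapped another in the sequences shown.
Cdkn2a outer start, chr4:89294620-89294869, minus strand, the p19ARF transcript: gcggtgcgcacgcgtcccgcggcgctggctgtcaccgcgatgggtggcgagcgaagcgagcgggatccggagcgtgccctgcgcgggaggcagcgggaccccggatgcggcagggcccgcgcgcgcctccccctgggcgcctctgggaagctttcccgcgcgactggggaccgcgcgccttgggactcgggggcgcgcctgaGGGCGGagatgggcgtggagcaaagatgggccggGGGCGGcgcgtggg
Cdkn2a inner start, chr4:89282193-89282442, minus strand, the p16 transcript: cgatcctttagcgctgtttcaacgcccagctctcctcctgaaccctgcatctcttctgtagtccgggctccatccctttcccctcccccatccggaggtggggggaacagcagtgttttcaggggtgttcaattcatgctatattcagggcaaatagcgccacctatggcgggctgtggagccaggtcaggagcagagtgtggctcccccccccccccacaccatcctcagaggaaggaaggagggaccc
Cdkn2b, chr4:89311033-89311282, minus strand: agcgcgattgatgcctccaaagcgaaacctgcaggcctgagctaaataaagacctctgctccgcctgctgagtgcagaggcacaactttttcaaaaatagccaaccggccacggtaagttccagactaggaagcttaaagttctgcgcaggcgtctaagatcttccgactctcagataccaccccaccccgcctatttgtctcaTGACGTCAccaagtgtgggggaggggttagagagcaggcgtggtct
Cdkn1b, chr6:134920151-134920400, plus strand: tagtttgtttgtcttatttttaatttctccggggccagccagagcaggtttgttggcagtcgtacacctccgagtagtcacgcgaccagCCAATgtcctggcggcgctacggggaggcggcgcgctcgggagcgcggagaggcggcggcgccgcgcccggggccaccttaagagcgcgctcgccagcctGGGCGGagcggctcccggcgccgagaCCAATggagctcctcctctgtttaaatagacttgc
Cdkn1a upstream start, chr17:29090729-29090978, plus strand: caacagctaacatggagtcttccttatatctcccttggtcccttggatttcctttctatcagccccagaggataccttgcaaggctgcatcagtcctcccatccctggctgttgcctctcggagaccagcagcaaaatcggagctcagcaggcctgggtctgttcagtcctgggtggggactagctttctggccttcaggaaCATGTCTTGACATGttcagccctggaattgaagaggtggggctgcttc
Cdkn1a downstream start, chr17:29093519-29093768, plus strand: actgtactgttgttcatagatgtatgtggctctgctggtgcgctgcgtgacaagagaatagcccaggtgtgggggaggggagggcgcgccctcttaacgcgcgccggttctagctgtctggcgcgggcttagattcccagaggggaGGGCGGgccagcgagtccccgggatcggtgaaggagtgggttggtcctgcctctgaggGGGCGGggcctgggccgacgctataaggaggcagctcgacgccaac
Cdk4, chr10:127063285-127063534, plus strand: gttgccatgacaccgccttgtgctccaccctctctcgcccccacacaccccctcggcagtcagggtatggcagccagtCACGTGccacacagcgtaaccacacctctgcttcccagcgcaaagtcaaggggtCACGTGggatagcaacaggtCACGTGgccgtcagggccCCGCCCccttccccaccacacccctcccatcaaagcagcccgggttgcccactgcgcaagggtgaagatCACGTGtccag

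These windows differ among themselves. The outer Cdkn2a start had 78.4% GC and 40 CpG dinucleotides, with SP1 letters at -48 and -14, against 60.0% GC, 7 CpG and no match at the inner start. For comparison, the median GC over all promoters was 52.4%. The Cdkn2b window had 53.6% GC and a single match, a CRE at -46. The Cdkn1b window held CCAAT boxes at -161 and -35 on either side of SP1 letters at -61. The upstream Cdkn1a start had the p53 core pair at -48, whereas the downstream start had SP1 letters at -104 and -46. The Cdk4 window had E-box letters at 4 places (-172, -118, -98 and -11). A match is a description of the letters and was not tested for binding.

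Recovered reads per library ranged from 17089836 to 19944952, and values are TMM-scaled CPM, in which a gene's reads are divided by the effective size of the library. Cav1 had 949.8 to 1157 CPM in WT libraries and no more than 0.411 CPM in any Cav1KO library. Of 14 fibroblast markers 12 were listed, with a summed level of 9515 to 9761 CPM in WT stiff, 12290 to 12510 in WT soft, 4628 to 5815 in Cav1KO stiff and 14270 to 14320 in Cav1KO soft libraries. Thy1 and Lum were not listed. The sum hides differences between single markers. Postn had 0.456 to 2.779 CPM in WT and 59.24 to 490.4 CPM in Cav1KO libraries, and S100a4 had 393.4 to 864.3 and 80.21 to 230.7 CPM. None of the 7 epithelial, 5 endothelial or 5 skeletal muscle markers was listed. Of 6 macrophage and leukocyte markers only Cd68 and Cd14 were listed, with Ptprc and Adgre1 not among the genes, and these summed to 24.9 to 40.4 CPM in WT and 92.8 to 103.6 CPM in Cav1KO libraries. The part of these marker differences in the results below was not tested, and in bulk RNA fewer cells of a kind and less RNA per cell cannot be told apart.

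Tests were made with limma on log2(CPM + 1) over 12494 genes, with p-values adjusted by the Benjamini-Hochberg method over all of them and a threshold of 0.05. With stiffness in WT cells, 3 of the 10 genes rose (Ccnd1, Ccnd3, Cdk6) and 5 fell (Ccnd2, Cdkn1a, Cdkn1b, Cdkn2a, Cdkn2b), beside 22.1% of all genes higher and 26.3% lower. In Cav1KO cells 4 rose (Ccnd1, Ccnd3, Cdk4, Cdkn1a) and 4 fell (Ccnd2, Cdkn1b, Cdkn2a, Cdkn2b), beside 27.9% and 28.2%. Against WT cells, Cav1KO cells had 0 of the 10 genes higher and 7 lower on the stiff substrate, beside 25.0% and 26.6% of all genes, and 1 higher and 5 lower on the soft substrate, beside 24.1% and 29.9%. The count of 0 was also 0 at an unadjusted p under 0.05 and with edgeR and DESeq2, but without Cav1KO stiff replicate 1 Cdk4 was called higher (log2 0.27, limma adjusted p = 0.0441). The stiffness effect differed between the genotypes for 4 of the 10 genes (Ccnd1, Ccnd2, Cdkn1a, Cdkn2b), beside 10.5% of all genes. Since many genes passed the threshold in each direct contrast, the size and library values of each gene are given below. The comparisons share groups: each library of a genotype enters its stiffness effect and a genotype effect.

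**Figure D1:**
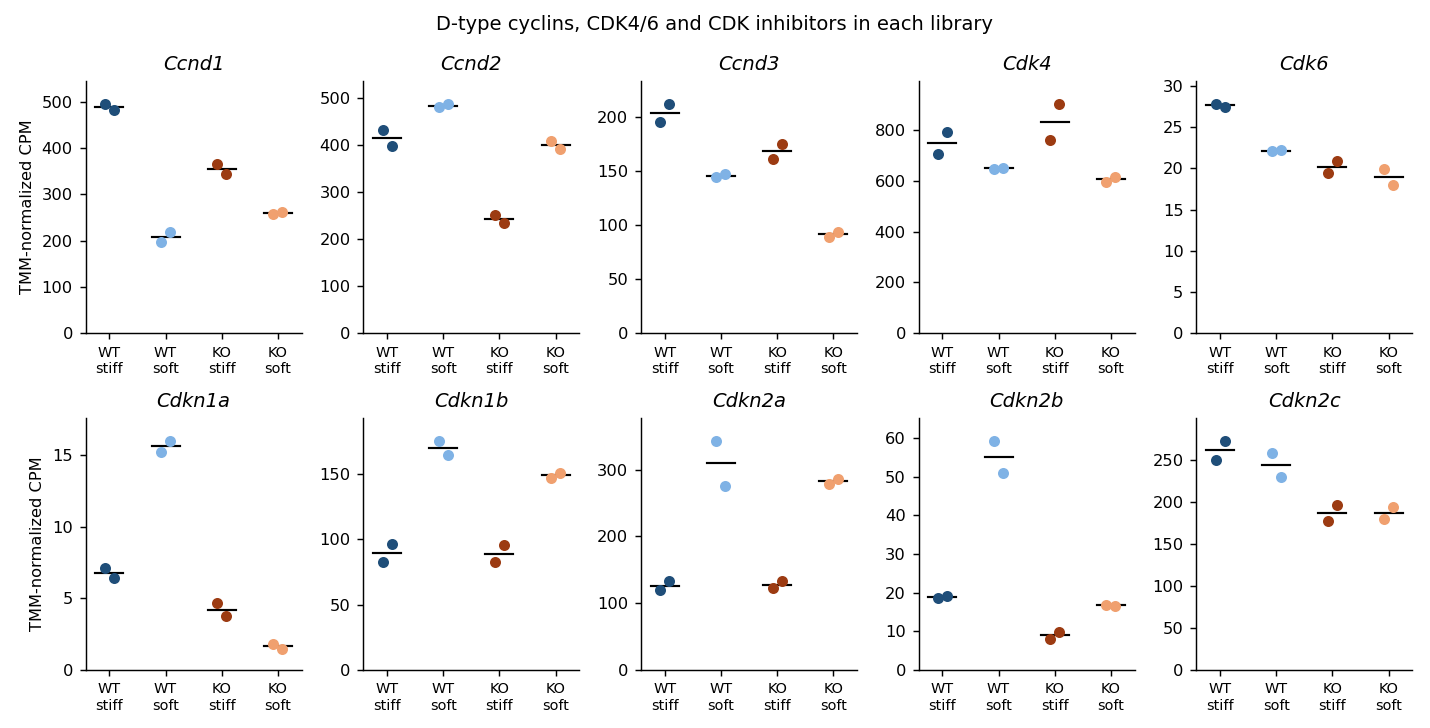
TMM-normalized CPM (y axis, starting at 0) of the 10 genes in each of the 8 libraries, by group (x axis); each point is a library and the bar is the mean of 2. Cdkn1a ran from 15.2 and 16.0 CPM in WT soft to 1.83 and 1.44 CPM in Cav1KO soft libraries, and the 2 libraries of a group lay close together for most genes.

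Among the D-type cyclins, Ccnd1 and Ccnd3 were higher on the stiff substrate in both genotypes while Ccnd2 was lower. Ccnd1, the cyclin most closely tied to growth factor and adhesion signalling in fibroblasts, lies on chromosome 7 from 144929931 to 144939925 (minus strand). It had 495 and 483 CPM in WT stiff, 197 and 219 in WT soft, 365 and 344 in Cav1KO stiff, and 258 and 262 in Cav1KO soft libraries. No pair of groups overlapped, and the order ran from WT stiff through Cav1KO stiff and Cav1KO soft to WT soft, so the Cav1KO groups lay between the WT extremes. The rise with stiffness was 2.35-fold in WT and 1.37-fold in Cav1KO cells, each past the threshold under all 19 alternative settings. The genotype effect changed sign with the substrate, with a log2 fold change, Cav1KO against WT, of -0.46 on stiff (standard error, SE, 0.07, limma adjusted p = 0.000991) and 0.32 on soft (SE 0.07, limma adjusted p = 0.00626). The soft call was lost without Cav1KO soft replicate 2 (adjusted p = 0.0505). The library kit does not keep strand, and Ccnd1 shares 1100 exon bases with the oppositely transcribed gene Oraov1, which had 5.37 to 12.7 CPM and fell with stiffness in both genotypes (log2 fold change -0.73 in WT and -0.72 in Cav1KO cells). Reads over that stretch cannot be assigned by strand, and 21.2% of 60-nt windows of Ccnd1 transcripts also occur, on either strand, in a transcript of another annotated gene.

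Ccnd2 (chromosome 6 from 127125162 to 127152193, minus strand) encodes cyclin D2, whose gene FOXO factors can repress. It had 432 and 398.5 CPM in WT stiff, 481 and 488 in WT soft, 251 and 234 in Cav1KO stiff, and 409 and 392 in Cav1KO soft libraries. The Cav1KO stiff libraries were the lowest, and WT stiff overlapped Cav1KO soft. The fall with stiffness was 1.65-fold in Cav1KO cells (log2 fold change -0.72, SE 0.07, limma adjusted p = 8.37e-05) and 1.17-fold in WT cells (-0.22, SE 0.07, limma adjusted p = 0.0333). The WT call held under 11 of 19 alternative settings, and it was lost without WT stiff replicate 2, either WT soft library or either Cav1KO soft library (adjusted p up to 0.166 over all settings). Between genotypes the gene was 1.71-fold lower in Cav1KO than in WT cells on stiff (log2 -0.77, SE 0.07, limma adjusted p = 4.64e-05). On soft it was 1.21-fold lower (-0.27, limma adjusted p = 0.0123), a call lost without WT soft replicate 2 or either Cav1KO soft library.

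Ccnd3 (chromosome 17 from 47505051 to 47599691, plus strand) encodes cyclin D3. It had 196 and 212 CPM in WT stiff, 145 and 147 in WT soft, 162 and 175 in Cav1KO stiff, and 88.9 and 93.9 in Cav1KO soft libraries. None of the groups overlapped, and the Cav1KO soft libraries were the lowest. It rose with stiffness 1.40-fold in WT (log2 0.48, SE 0.08, limma adjusted p = 0.00113) and 1.84-fold in Cav1KO cells (0.87, SE 0.08, limma adjusted p = 4.22e-05). Cav1KO cells had less of it on both substrates, 1.60-fold on soft (log2 -0.67, limma adjusted p = 0.000123) and 1.21-fold on stiff (-0.28, limma adjusted p = 0.0149), and the stiff call was lost without WT stiff replicate 2 or Cav1KO stiff replicate 1. The overlapping gene Bysl, which shares 361 exon bases with Ccnd3, also rose with stiffness (log2 1.09 in WT and 1.17 in Cav1KO cells).

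Levels of different genes were compared only per length, as CPM per kilobase of the longest annotated coding transcript. On this scale the 3 D-type cyclins together had 293 and 292.5 CPM per kb in WT stiff, 197 and 205 in WT soft, 214 and 212 in Cav1KO stiff, and 176 and 176 in Cav1KO soft libraries. The sum was thus highest in WT stiff and lowest in Cav1KO soft libraries, with no overlap between the groups. Ccnd1 made up 45.2% and 44.1% of the sum in WT stiff and 26.7% and 28.5% in WT soft libraries. In Cav1KO cells its share was 45.7% and 43.4% on stiff and 39.3% and 39.7% on soft. The share of Ccnd2 moved the other way, from 23.3% and 21.5% in WT stiff to 38.5% and 37.6% in WT soft, and from 18.5% and 17.4% to 36.8% and 35.1% in Cav1KO libraries. The order of the cyclins depended on the length used: with the mean length of coding transcripts, Ccnd1 had 25.8% and 25.3% in WT stiff libraries and was the smallest of the 3 in every library. The direction of the shifts in Ccnd1 and Ccnd2 with stiffness was the same with either length.

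**Figure D2:**
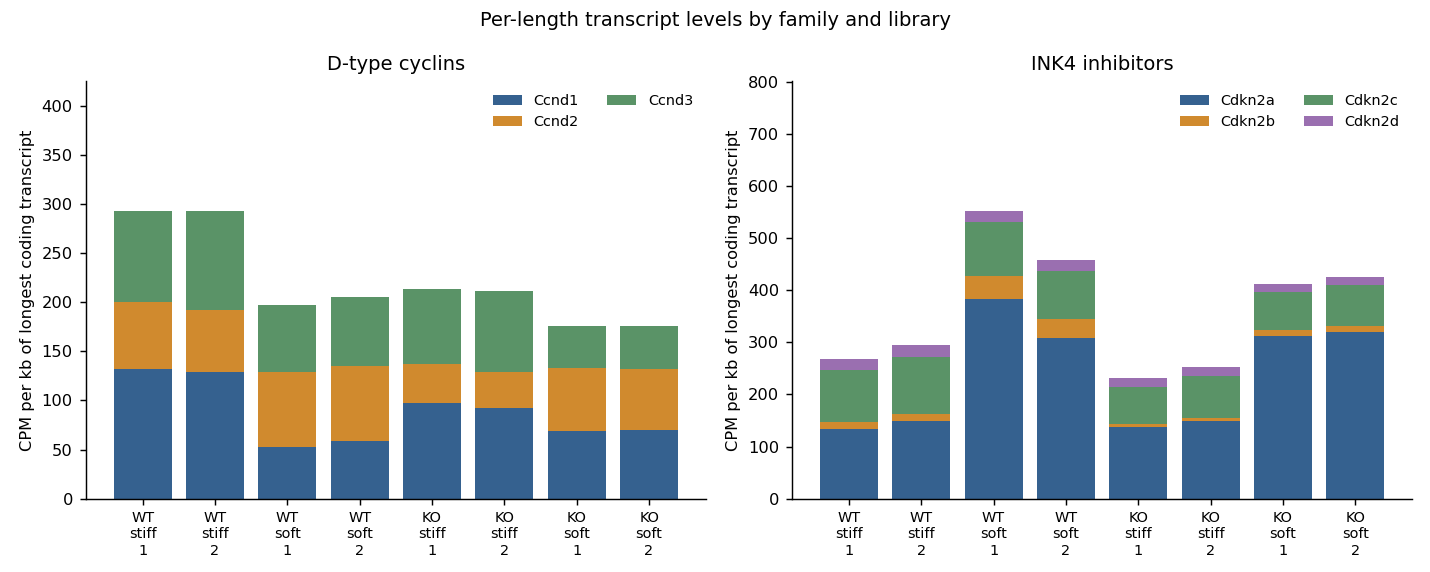
Per-length levels (y axis, CPM per kb of the longest coding transcript, from 0) of the D-type cyclins (left) and the INK4 inhibitors (right) in each library (x axis), stacked by gene. The cyclin stack was tallest in WT stiff (293 and 292.5) and the INK4 stack in WT soft libraries (553 and 458). The Cdkn2a part of the INK4 stack holds p16 and p19ARF transcripts together.

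Of the kinases, Cdk4 was abundant and Cdk6 scarce in all groups. Cdk4 (chromosome 10 from 127063534 to 127067920, plus strand) had 706 and 795 CPM in WT stiff, 648 and 653 in WT soft, 761 and 904 in Cav1KO stiff, and 598 and 618 in Cav1KO soft libraries. The stiff libraries lay above the soft libraries in both genotypes, and the stiff groups overlapped each other. The rise was 1.37-fold in Cav1KO cells (log2 0.45, SE 0.10, limma adjusted p = 0.00457). In WT cells the ratio was 1.15 and did not pass the threshold (log2 0.20, SE 0.10, limma adjusted p = 0.119), and neither did the difference between the genotypes (-0.24, SE 0.14, limma adjusted p = 0.237). Cdk4 shares 641 exon bases with the oppositely transcribed Tspan31 (104 to 175.5 CPM), which was lower on stiff in WT cells (log2 -0.46, limma adjusted p = 0.0200). Of 60-nt windows of Cdk4 transcripts, 16.5% also occur in a transcript of another annotated gene. For Cdkn1a this share was 7.89%, and it was 0% for Cdkn1b, Cdkn2a, Cdkn2b and Cdkn2c. Antisense genes that are not listed also share exon bases with Ccnd2 (372 with Gm43126 and 368 with 9330179D12Rik) and Cdk6 (368 with Gm17590).

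Cdk6 (chromosome 5 from 3341485 to 3531008, plus strand) had 27.8 and 27.5 CPM in WT stiff, 22.1 and 22.2 in WT soft, 19.4 and 20.9 in Cav1KO stiff, and 20.0 and 18.0 in Cav1KO soft libraries. The WT stiff libraries were the highest, and the Cav1KO groups overlapped. It was 1.25-fold higher on stiff in WT cells (log2 0.31, SE 0.10, limma adjusted p = 0.0321), a call that held under 11 of 19 settings and was lost without any 1 of the 4 WT libraries or either Cav1KO soft library. In Cav1KO cells the change was 0.08 (SE 0.10, limma adjusted p = 0.512). On stiff, Cav1KO cells had 1.37-fold less Cdk6 than WT cells (log2 -0.44, limma adjusted p = 0.00606), and this held under all 19 settings. Per length, Cdk4 accounted for 99.3% to 99.6% of the 2 kinases together, and for at least 98.5% with the mean transcript length.

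The CIP/KIP inhibitors differed from each other. Cdkn1a, the p21 gene and a standard target of p53, was the only one of the 10 genes that passed the threshold in opposite directions in the 2 genotypes. It lies on chromosome 17 from 29090976 to 29100727 (plus strand). On the opposite strand AC167363.2, a gene that is not listed, shares 273 exon bases with it. WT stiff libraries had 7.08 and 6.44 CPM (141 and 113 reads) and WT soft libraries 15.2 and 16.0 CPM (252 and 298 reads). Cav1KO stiff libraries had 4.65 and 3.73 CPM (79 and 68 reads) and Cav1KO soft libraries 1.83 and 1.44 CPM (35 and 28 reads). No groups overlapped, with the highest level in WT soft and the lowest in Cav1KO soft libraries, a 9.55-fold span. On the stiff substrate the gene was 2.31-fold lower in WT cells (log2 -1.10, SE 0.15, limma adjusted p = 0.000545) and 2.56-fold higher in Cav1KO cells (0.98, SE 0.15, limma adjusted p = 0.000736). The WT minus Cav1KO difference of these effects was -2.07 (SE 0.21, limma adjusted p = 0.00286). Because the gene is low, the size depends on the pseudocount and method: over all settings the Cav1KO effect ran from 0.47 to 1.35 and the difference from -2.56 to -1.28, each past the threshold. Cav1KO cells had less Cdkn1a than WT cells on both substrates, by log2 -2.66 on soft (limma adjusted p = 2.08e-06) and -0.59 on stiff (limma adjusted p = 0.0109), and the stiff call was lost without WT stiff replicate 1 or Cav1KO stiff replicate 2.

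Cdkn1b, which encodes p27, the inhibitor that accumulates in quiescent and growth factor-starved cells, lies on chromosome 6 from 134920401 to 134925513 (plus strand). It had 83.0 and 96.4 CPM in WT stiff, 176 and 165 in WT soft, 82.6 and 95.7 in Cav1KO stiff, and 147 and 151 in Cav1KO soft libraries. All soft libraries lay above all stiff libraries, and the stiff groups overlapped. The gene was lower on stiff 1.90-fold in WT (log2 -0.92, SE 0.10, limma adjusted p = 0.000186) and 1.68-fold in Cav1KO cells (-0.74, SE 0.10, limma adjusted p = 0.000349), under all 19 settings in each. The genotype effects were -0.01 on stiff (limma adjusted p = 0.950) and -0.19 on soft (limma adjusted p = 0.138). Of the per-length sum of Cdkn1a and Cdkn1b, Cdkn1b made up 82.5% to 87.2% in WT libraries, 89.0% and 92.2% in Cav1KO stiff and 97.4% and 98.0% in Cav1KO soft libraries. The third gene of the family, Cdkn1c, was not listed.

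Among the INK4 genes, Cdkn2a and Cdkn2b were lower on the stiff substrate in both genotypes and Cdkn2c was not changed by stiffness past the threshold. Cdkn2a (chromosome 4 from 89274471 to 89294653, minus strand) had 119 and 133 CPM in WT stiff, 344 and 275 in WT soft, 122 and 132.5 in Cav1KO stiff, and 279 and 286 in Cav1KO soft libraries. The soft libraries were all above the stiff libraries, and the genotypes overlapped on each substrate. The fall was 2.46-fold in WT (log2 -1.28, SE 0.11, limma adjusted p = 7.61e-05) and 2.22-fold in Cav1KO cells (-1.14, SE 0.11, limma adjusted p = 6.31e-05), and the difference between them was -0.14 (SE 0.15, limma adjusted p = 0.533). The genotype effects were 0.02 on stiff and -0.12 on soft (limma adjusted p = 0.903 and 0.368), which does not show that the lines had the same level. The table has 1 value per gene, so the p16 and p19ARF transcripts, which share their later exons and start at the inner and outer promoters shown above, cannot be told apart.

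Cdkn2b, the p15 gene and a known TGF-beta target in epithelial cells, lies beside Cdkn2a on chromosome 4 from 89306299 to 89311039 (minus strand). It had 18.5 and 19.1 CPM in WT stiff, 59.3 and 50.9 in WT soft, 8.0 and 9.81 in Cav1KO stiff, and 16.7 and 16.6 in Cav1KO soft libraries. No groups overlapped, and unlike Cdkn2a it was lower in Cav1KO cells on both substrates. The fall with stiffness was 2.94-fold in WT (log2 -1.50, SE 0.12, limma adjusted p = 7.15e-05) and 1.87-fold in Cav1KO cells (-0.84, SE 0.12, limma adjusted p = 0.000613). Cav1KO cells had 3.31-fold less on soft (log2 -1.67, limma adjusted p = 1.15e-05) and 2.11-fold less on stiff (-1.0, limma adjusted p = 0.000232), under all 19 settings in each.

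Cdkn2c, the p18 gene and itself an E2F target, lies on chromosome 4 from 109660876 to 109667189 (minus strand), far from the other pair. It had 250 and 272.5 CPM in WT stiff, 258 and 229 in WT soft, 177 and 196 in Cav1KO stiff, and 179 and 194 in Cav1KO soft libraries. The substrates overlapped within each genotype, and all WT libraries lay above all Cav1KO libraries. Cav1KO cells had 1.40-fold less on stiff (log2 -0.48, SE 0.09, limma adjusted p = 0.00245) and 1.30-fold less on soft (-0.38, SE 0.09, limma adjusted p = 0.00756), the latter lost without WT soft replicate 1 or Cav1KO soft replicate 1. The fourth INK4 gene, Cdkn2d (p19INK4d), ranged from 22.4 to 32.4 CPM over the 8 libraries and passed the threshold only in the soft genotype contrast. Per length, Cdkn2a was the largest INK4 gene in every library, with 49.9% and 50.2% of the family in WT stiff, 69.5% and 67.2% in WT soft, 59.2% and 58.4% in Cav1KO stiff, and 75.7% and 75.0% in Cav1KO soft libraries. These are shares of gene totals. The Cdkn2a total includes p19ARF transcripts, which encode no INK4 protein, so the share of p16 is not known. With the mean transcript length, Cdkn2c was about level with it in WT stiff libraries (44.4% and 43.9%, against 43.4% and 43.8% for Cdkn2a).

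**Figure D3:**
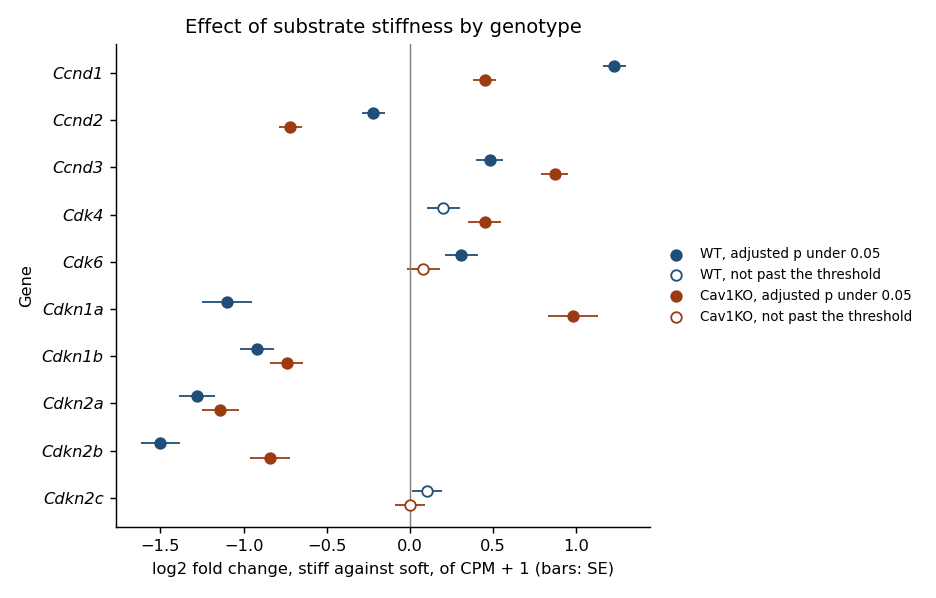
Log2 fold change of CPM + 1, stiff against soft (x axis; bars are SE), for each of the 10 genes (y axis) in WT (blue) and Cav1KO cells (brown); filled points passed an adjusted p of 0.05. Cdkn1a lies at -1.10 in WT and at 0.98 in Cav1KO cells, whereas Cdkn1b, Cdkn2a and Cdkn2b lie below 0 in both.

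The test of the difference between the stiffness effects (WT minus Cav1KO) gave 0.78 for Ccnd1 (SE 0.10, limma adjusted p = 0.00726), 0.50 for Ccnd2 (0.0295), -2.07 for Cdkn1a (0.00286) and -0.66 for Cdkn2b (0.0496). Ccnd1 rose more with stiffness in WT than in Cav1KO cells, Ccnd2 fell less, and Cdkn2b fell more. These 4 calls were not equally firm. Cdkn1a passed under all 18 settings, Ccnd1 under 16, Ccnd2 under 11 and Cdkn2b under 6. Cdkn2b was not called by edgeR or DESeq2 on the recovered reads, nor with a pseudocount of 0.25. Without a mean-variance trend neither Cdkn2b nor Ccnd2 was called. Ccnd1 was lost without either Cav1KO soft library (adjusted p up to 0.0582). Ccnd2 was lost without WT stiff replicate 1, either WT soft library, Cav1KO stiff replicate 2 or either Cav1KO soft library (up to 0.141), and Cdkn2b without any library but Cav1KO stiff replicate 1 (up to 0.164). Ccnd3 missed the threshold (-0.39, adjusted p = 0.0509) and passed under 4 of 18 settings.

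The genes on which this machinery acts were read from lists written by hand. Other G1 to S regulators of the RB pathway rose with stiffness in both genotypes, 17 of 29 in WT (1 fell, median log2 fold change 0.55, against -0.02 over all genes) and 19 of 29 in Cav1KO cells (1 fell, median 0.52). The largest changes in WT cells were in E2f8 (1.32), Ccne2 (1.29), E2f2 (1.16) and E2f7 (1.07). In Cav1KO cells they were in Ccne2 (1.81), Ccne1 (1.53), E2f1 (1.28) and Skp2 (1.19), which encode cyclins E2 and E1, the activating E2F1 and the ubiquitin ligase subunit that targets p27. Ccne1 had 64.2 and 70.0 CPM in WT stiff, 30.9 and 35.0 in WT soft, 75.1 and 77.7 in Cav1KO stiff, and 25.1 and 26.6 in Cav1KO soft libraries. Cdk2, the partner of cyclin E, rose by 0.60 in WT and 1.05 in Cav1KO cells. The 1 gene of the list that fell, in both genotypes, was Rbl2, the RB relative p130 found mainly in quiescent cells (-0.37 and -0.65). Rb1 was low throughout, at 5.86 to 11.8 CPM, and Rbl1 (p107) passed the threshold only in Cav1KO cells (0.29).

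E2F-driven replication genes were higher on stiff for 26 of 27 genes in WT (median 0.84) and for 24 of 27 in Cav1KO cells (median 1.04), and none was lower. Cdc6 (1.43 and 1.57), which loads the replicative helicase, and Rrm2 (1.31 and 1.60), the ribonucleotide reductase subunit of S phase, led in both genotypes, followed by Dnmt1 (1.31) and Mcm10 (1.21) in WT and Tk1 (1.41) and Mcm5 (1.32) in Cav1KO cells. Mitotic genes were higher for 15 of 20 and lower for 0 in WT (median 0.51). The largest were Mki67 (1.22, SE 0.45), Cenpe (1.09, SE 0.33), Kif20a (0.86, SE 0.23) and Foxm1 (0.85, SE 0.15). Mki67 lay at the edge of the threshold (limma adjusted p = 0.05). Mki67 and Cenpe were low, with group means of 6.451 to 20.34 CPM and 3.465 to 10.56 CPM. In Cav1KO cells 9 mitotic genes were higher and 4 lower (median 0.31). Among the largest changes Mki67 (-1.51, SE 0.45), Cenpe (-1.26, SE 0.33) and Top2a (-1.06, SE 0.27) fell whereas Cenpa rose (1.12, SE 0.14). The WT minus Cav1KO difference passed the threshold for 3 of the 20, Mki67 (2.73), Cenpe (2.35) and Top2a (1.63). No replication gene, and in WT cells no mitotic gene, was lower by limma at an unadjusted p under 0.05 either, nor by edgeR or DESeq2 (0 in each case).

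The p53 axis was read next, since Cdkn1a is its standard target. Trp53 had 437 and 447 CPM in WT stiff, 293 and 331 in WT soft, 336 and 332 in Cav1KO stiff, and 228 and 254.5 in Cav1KO soft libraries, higher on stiff in both genotypes (log2 0.50 and 0.47). Cav1KO cells had less Trp53 than WT cells on stiff and on soft (log2 -0.40 and -0.37, limma adjusted p = 0.00395 and 0.00563). Mdm2, the p53 target that encodes its ubiquitin ligase, was at 22.5 to 34.1 CPM over the 8 libraries. With stiffness Mdm2 rose in Cav1KO cells (log2 0.37, limma adjusted p = 0.00867) and had -0.02 in WT cells (0.857). WT minus Cav1KO was -0.40 and missed the threshold (limma adjusted p = 0.0799). Mdm2 was lower in Cav1KO than in WT cells on soft (-0.48, limma adjusted p = 0.00246), with -0.09 on stiff (0.469). Of 28 other p53 targets 4 were higher and 11 lower on stiff in WT (median -0.21), beside 22.1% and 26.3% of all genes. In Cav1KO cells 9 were higher and 10 lower (median -0.21), beside 27.9% and 28.2%. In WT cells Trp53inp1 (-2.97), Dcxr (-1.50) and Ephx1 (-1.26) fell and Aen rose (1.19). In Cav1KO cells Trp53inp1 (-1.77) and Ephx1 (-1.05) fell as well, and Aen (1.15) and Rps27l (0.99) rose. The difference between the genotypes passed for 3 of the 28, beside 10.5% of all genes: Trp53inp1 (-1.20), Gadd45a (-0.88) and Bax (-0.54). Against WT, Cav1KO cells had 8 of the 28 higher and 8 lower on stiff (median 0.10), beside 25.0% and 26.6% of all genes. On soft 6 were higher and 9 lower (median -0.19), beside 24.1% and 29.9%. The part of p53 in the Cdkn1a pattern was not tested.

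Further lists cover genes that act on the 10 genes or their proteins. Over all genes, 22.1% were higher and 26.3% lower on stiff in WT, and 27.9% and 28.2% in Cav1KO cells. The genotype difference passed for 10.5% of all genes. Counts near these shares are no result about a list, and the genes named below are a description. Ubiquitin ligase and related genes for the turnover of cyclin D and p27 had 4 higher and 4 lower of 16 in WT, and 4 and 6 in Cav1KO cells, with the genotype difference past the threshold for Fbxw7 (1.0) and Fbxo4 (-0.86). Fbxo31, a ligase subunit for cyclin D1, was higher in Cav1KO than in WT cells on both substrates (log2 1.56 on stiff and 1.43 on soft). Polycomb genes and other regulators of the Cdkn2a-Cdkn2b locus had 6 higher and 6 lower of 22 in WT, among them Ezh1 (-0.74), Cbx7 (-0.73), Eed (0.70) and Ezh2 (0.63), and 7 and 5 in Cav1KO cells, where the H3K27 demethylase gene Kdm6b fell most (-1.65). The genotypes differed for Kdm6b (1.19) and Id1 (-0.60). Genes of TGF-beta and FOXO input had 4 higher and 6 lower of 18 in WT and 4 and 8 in Cav1KO cells, with falls in Tgfb2 (-1.47 and -1.71) and Foxo3 (-0.74 and -0.98). Smad3 (0.70), Tgfb1 (0.65) and Tgfbr1 (-0.56) differed between the genotypes. Mitogen and adhesion genes upstream of Ccnd1 had 9 higher and 9 lower of 31 in WT and 9 and 10 in Cav1KO cells, with falls in Pdgfra (-1.17 and -1.52), Fos (-1.11 and -1.32) and Pdgfrb (-0.93 and -1.43) and a rise in Etv4 (1.01 and 1.04), and the genotypes differed only for Map2k1 (-0.51).

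**Figure D4:**
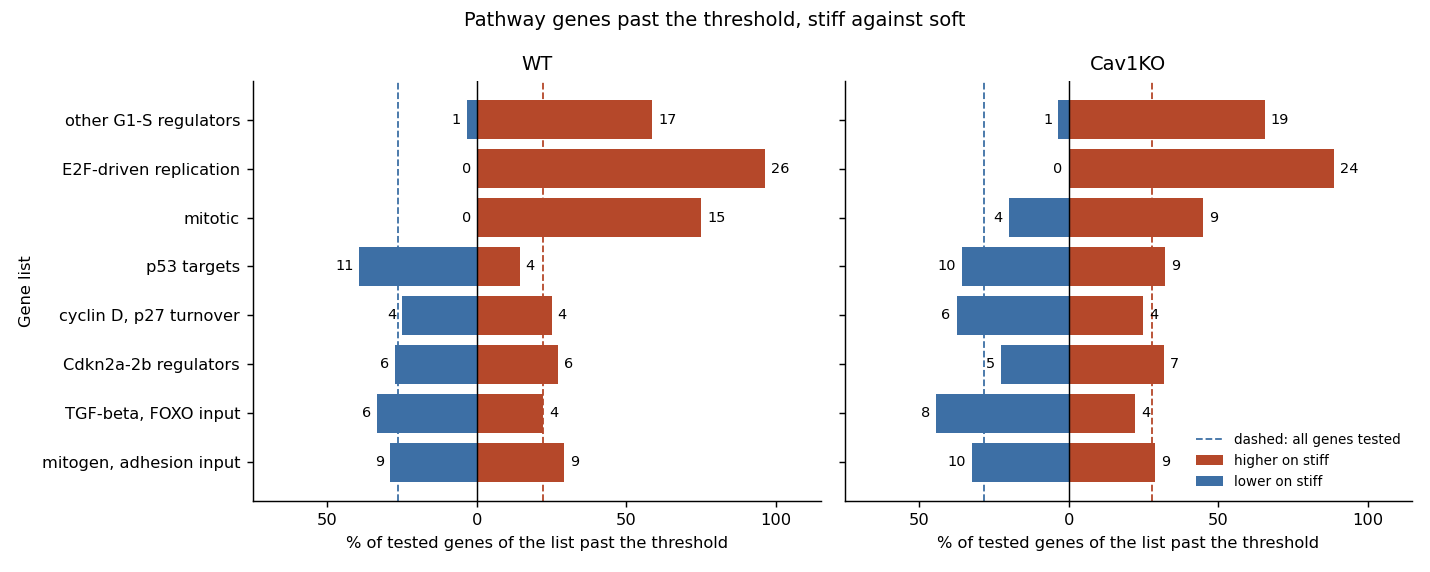
Share of the tested genes of each list (y axis) past an adjusted p of 0.05, stiff against soft, in percent (x axis; red to the right, higher on stiff; blue to the left, lower), with counts at the bars, in WT (left) and Cav1KO cells (right); dashed lines give the share over all genes. Replication genes stand at 26 of 27 higher in WT and 24 of 27 in Cav1KO cells, and p53 targets at 4 higher and 11 lower in WT and at 9 and 10 in Cav1KO cells.

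Over all genes, 25.0% were higher and 26.6% lower in Cav1KO than in WT cells on stiff, and 24.1% and 29.9% on soft. Of 29 other G1 to S regulators, 1 was higher and 10 lower in Cav1KO than in WT cells on stiff, and 0 and 14 on soft. On soft, edgeR, DESeq2 and an unadjusted limma p under 0.05 also gave 0 higher. E2f6, a repressor of the E2F family, had a mean of 18.1 CPM in WT stiff libraries and was at 0 CPM in both Cav1KO stiff libraries, and Cks1b, a cofactor of the p27 ligase, was lower in Cav1KO cells on both substrates (log2 -0.87 and -1.23). Between Cav1KO and WT cells, replication genes were higher for 9 and lower for 1 of 27 on stiff (median 0.13). On soft the counts were 6 and 8 (median -0.05), close to the shares over all genes. Mitotic genes were higher for 0 and lower for 15 of 20 on stiff (median -0.45), and 3 and 9 on soft (median -0.27). The 0 was also 0 by edgeR, by DESeq2 and at an unadjusted limma p under 0.05, and the 15 became 7 without WT stiff replicate 1 and 8 without Cav1KO stiff replicate 2.

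The chromosome 4 locus was examined for its neighbours. Of 38 other annotated coding genes within 1 Mb of Cdkn2a or Cdkn2b, 7 were listed. The nearest, Mtap, which encodes a purine salvage enzyme and starts 157.5 kb from the outer Cdkn2a start (chromosome 4 from 89137122 to 89181081, plus strand), moved opposite to Cdkn2a with stiffness. It had 227 and 228 CPM in WT stiff, 151.5 and 174 in WT soft, 132 and 127 in Cav1KO stiff, and 92.0 and 95.3 in Cav1KO soft libraries. No groups overlapped, and Mtap was higher on stiff in WT (log2 0.48, SE 0.08, limma adjusted p = 0.00154) and in Cav1KO cells (0.46, SE 0.08, limma adjusted p = 0.00145), and lower in Cav1KO cells on both substrates (-0.81 and -0.79). The other 6 lay farther away. Focad was also higher on stiff (0.42 in WT and 0.37 in Cav1KO cells), whereas Ptplad2 (named Hacd4 in the annotation) fell in both genotypes as Cdkn2a did (-1.02 and -1.24), from 31.3 and 26.4 CPM on soft to 12.2 and 15.4 on stiff in WT cells. Klhl9, a substrate adaptor of a ubiquitin ligase, fell in WT cells (-0.60) and had 0.01 in Cav1KO cells, and the difference passed the threshold (-0.61, limma adjusted p = 0.0286), though not without any 1 of 6 libraries (all but WT stiff replicate 2 and Cav1KO stiff replicate 1). The gene spans of Klhl9 and Gm26566 overlap on opposite strands, as do those of Focad and Ptplad2. Reads over shared bases cannot be assigned by strand, so the values within each pair may not be independent. Gm26566 was lower on stiff in WT (-0.59, with 0.14 in Cav1KO cells), and Gm13285 (-0.75) and Gm13290 (-0.79) were lower in Cav1KO cells (-0.33 and -0.24 in WT), the last at no more than 1.41 CPM in any library. Each of these 3 calls was lost without 1 or more of the libraries and with quantile normalization. The calls among the 7 listed neighbours thus went in both directions.

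As a description over the 8 libraries, which share groups, the genes whose log2(CPM + 1) ran most like Ccnd1 among 10064 genes with a mean of at least 5 CPM were Slc39a7 (Pearson's r = 0.986), Reep6 (0.977) and Ubqln1 (0.977). Those most like Cdkn1a were Peg10 (0.996), Hey1 (0.993) and Fgf7 (0.991). The patterns rest on 4 groups, so many genes can be this alike.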

How the data were processed

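RNA-seq was analysed from MEFs of 2 genotypes on 2 substrates, with 2 libraries in each of 4 groups assigned by the genotype and treatment labels. Per the labels, poly(A) libraries were made with a kit that keeps no strand and sequenced as 60-nt single reads, and the submitters' processing notes name CASAVA 1.8.2, cutadapt, RSEM 1.2.3 and GRCm38, without roles. The authors deposited a TMM-normalized CPM table, a signal that is each gene's reads divided by its library's size factor, so differences are relative to the bulk of genes. In every library 100% of values were whole multiples of 1 read (tolerance 0.01), which gave the reads back (17089836 to 19944952 per library). Intervals from these reads would cover counting error only.

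A gene was tested if 2 or more libraries reached 1 CPM (12494 of 12528 genes). limma 3.58.1 (R 4.3.3) was fitted to log2(CPM + 1) with a mean-variance trend, all groups in 1 fit, 4 residual degrees of freedom, two-sided tests and Benjamini-Hochberg adjustment over all genes for each contrast. The scale understates changes of low genes such as Cdkn1a. The fit was tested on simulated data. Alternatives were the pseudocount (0.25 and 5), the filter, median centring, quantile normalization, no trend, only the groups of a contrast, a 2-fold minimum, leaving out each library, a replicate block, and edgeR 4.0.16 (quasi-likelihood) and DESeq2 1.42.0 on the recovered reads. Coordinates and lengths came from GENCODE M21 (GRCm38), matched for 12460 genes, and promoters from RefSeq (GRCm38.p6).

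The 10 genes and the gene lists were chosen with earlier results of these data known. Besides the 10, the text names Cav1, Cdkn2d, Cdkn1c, Ccne1, Ccne2, Cdk2, Rb1, Rbl1, Rbl2, E2f1, Trp53 and Mdm2, at most 4 genes of a list with the largest change past the threshold in each contrast described (Mcm5 for stiffness in Cav1KO cells), neighbours of Cdkn2a, genes overlapping a member, and the 3 genes most like Ccnd1 and Cdkn1a. Fbxo31, Cks1b and E2f6 are among the largest changes of their lists between genotypes. A further gene of the lists is not reported here.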

Additional observations from a re-analysis of the deposited data

Results flagged for a closer look

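For 4 of the 10 genes the effect of stiffness differed between the genotypes in the test of the difference itself (WT minus Cav1KO, log2, limma adjusted p): 0.78 for Ccnd1 (0.00726), 0.50 for Ccnd2 (0.0295), -2.07 for Cdkn1a (0.00286) and -0.66 for Cdkn2b (0.0496). The same test passed for other genes of the lists that are named in the text or lead their list. Their limma adjusted p ran from 0.0208 (Pcna) to 0.0473 (Prim1), so these calls lay nearer the threshold than those of Ccnd1 and Cdkn1a. How the number of calls of this test over all genes depends on single libraries is described below. For single genes this is described only for some of the 10 genes and for Klhl9. It is not given for the other genes named here. Among G1 to S regulators these were Ccne1 (-0.52), E2f1 (-0.55) and Tfdp1 (-0.43), among turnover genes Fbxw7 (1.0) and Fbxo4 (-0.86), and among replication genes Pcna (-0.72), Tyms (-0.62), Gins1 (-0.61), Prim1 (-0.59) and Mcm5 (-0.48). Mitotic genes were Mki67 (2.73), Cenpe (2.35) and Top2a (1.63), and p53 targets were Trp53inp1 (-1.20), Gadd45a (-0.88) and Bax (-0.54). The others were Kdm6b (1.19), Id1 (-0.60), Smad3 (0.70), Tgfb1 (0.65), Tgfbr1 (-0.56), Map2k1 (-0.51) and, near Cdkn2a, Klhl9 (-0.61).

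With 2 libraries per group, no test for a single outlying library was made.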

How the results depend on the processing

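The counts of the 10 genes past the threshold (8 in WT and 8 in Cav1KO for stiffness, 4 for the difference, 7 on stiff and 6 on soft for genotype) moved most with a minimum change of 2-fold, which left 4, 1, 1, 1 and 2. Without a mean-variance trend the difference was called for 2 genes. Leaving out 1 library gave 6 to 8 and 8 to 8 for stiffness, 1 to 5 for the difference, and 6 to 7 and 4 to 6 for genotype. The lowest count for the difference came without either Cav1KO soft library. Over all genes the difference was called for 1309 genes, and for 110 to 3436 without 1 library, lowest without Cav1KO soft replicate 1 and highest without Cav1KO stiff replicate 1.

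Directions turned only for values that passed no test. Cdkn2c with stiffness in Cav1KO cells (0.00) became -0.16 with quantile normalization, -0.00 with DESeq2, and ran from -0.07 to 0.07 without 1 library. Cdkn1b between genotypes on stiff (-0.01) became 0.05 with median centring, 0.01 with DESeq2 and -0.12 to 0.10 without 1 library. Cdk4 on soft (-0.10) became 0.11 with quantile normalization. Without 1 library Cdkn2a ran from -0.30 to 0.02 for the difference, and between genotypes from -0.06 to 0.09 on stiff and from -0.28 to 0.04 on soft. Klhl9 with stiffness in Cav1KO cells (0.01) became -0.15 with quantile normalization and ran from -0.09 to 0.10 without 1 library, and Gm13290 in WT cells (-0.24) from -0.51 to 0.03. The causes were not tested.

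No consistent pairing by replicate number was seen: deviations of same-numbered libraries correlated from -0.367 (WT stiff and soft) to 0.415 (stiff, WT and Cav1KO). Such correlations cannot show that the samples were unpaired. With a replicate block, the counts of the 10 genes were 8, 8, 4, 7 and 6, and 48 of 50 tests kept their call. Cdkn2b lost the difference (adjusted p = 0.0590) and Ccnd3 gained it (0.0431).

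With 2 libraries per group, small changes such as those of Ccnd2 and Cdk6 in WT cells lie near what the fit can call, and the reads do not separate transcripts of a gene or strands.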
